A study of Mus musculus with 22 samples.

Results

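The epithelial sodium channel and the steroid pathway that controls it were followed through 9 genes: the channel subunits Scnn1a, Scnn1b and Scnn1g, the receptors Nr3c2 and Nr3c1, the steroid-inactivating enzyme Hsd11b2, the kinase Sgk1, the ubiquitin ligase Nedd4l and the steroid-induced gene Tsc22d3. They were taken by gene name from the deposited expression table, and all 9 were found among its 54514 gene entries, each on 1 line. The cells were mpkCCD, an immortal line of mouse cortical collecting duct cells grown on permeable supports, and the study used a green fluorescent protein (GFP) reporter to look at how expression of the water channel Aqp2 varies from cell to cell. RNA of 22 libraries in 10 groups was sequenced. Unsorted wild-type (WT) cells had 3 libraries without dDAVP, called vehicle here after the growth protocol, and 3 with dDAVP, desmopressin, which activates the vasopressin V2 receptor.

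The other 16 libraries came from 4 GFP reporter clones (C1, C11, C43, C50). All were given dDAVP and separated into GFP-negative and GFP-positive cells, with 2 libraries per fraction and clone. Every group was kept in medium with 50 nM dexamethasone, an agonist of the glucocorticoid receptor, together with sodium selenite and transferrin, so no group was free of steroid. More than 1 dDAVP dose and duration appears in the growth protocol, and none is tied to a library. Each clone is a single reporter line, and nothing in the labels says that replicates came from separate cultures, so p-values measure the spread between these libraries, which may be technical. The clones differ from the WT cells in the reporter, the cloning and the sorting together, and these cannot be told apart.

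In the collecting duct, the epithelial sodium channel lets sodium enter principal cells from the urine and is built from an alpha (Scnn1a), a beta (Scnn1b) and a gamma (Scnn1g) subunit. Aldosterone acts through the mineralocorticoid receptor Nr3c2, which glucocorticoids can also occupy, and Hsd11b2 protects that receptor by inactivating natural glucocorticoids. Receptor activation induces Sgk1, a kinase that phosphorylates Nedd4l and so weakens the binding of that ligase to the channel tails, which otherwise marks the channel for removal. Tsc22d3, also called GILZ, is a classical target of the glucocorticoid receptor Nr3c1.

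The files were first checked against their labels. Aqp2 ranged from 64.1 to 74.9 TPM (the share of all transcripts, corrected for transcript length) in the vehicle libraries and from 2759 to 3025 TPM with dDAVP. It ranged from 66.5 to 1680 TPM in the GFP-negative and from 2008 to 7254 TPM in the GFP-positive libraries, while GFP itself ranged from 5.31 to 17.6 TPM and from 1065 to 1567 TPM. Of 9 principal cell markers, 6 had a median of at least 1 TPM, and Kcnj1, Elf5 and Aqp4 lay under it with medians of 0, 0.055 and 0.85 TPM. Among 9 intercalated cell markers 3 reached that level, Atp6v1b1, Slc4a9 and Aqp6 with medians of 57.4, 2.08 and 2.59 TPM. The defining Foxi1, Slc4a1, Slc26a4 and Atp6v1g3 had a median of 0. None of 3 distal convoluted tubule, 3 thick ascending limb, 6 fibroblast and 3 endothelial markers reached it, and neither did any of 4 proximal tubule and 3 immune markers other than Lrp2 and Cd68. The first GFP-negative library of C50 stood apart, with 8.32% of its TPM in ribosomal protein genes against at most 6.12% in any other library. Results that rest on it are given with and without it, apart from the correlations, which include it. In these bulk samples, fewer cells that express a gene and less RNA per cell cannot be told apart.

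The pathway genes lie on several chromosomes in the GENCODE M21 annotation (GRCm38). Scnn1g (ENSMUSG00000000216) spans chr7:121734479-121768475 and Scnn1b (ENSMUSG00000030873) spans chr7:121865038-121918514 on the same plus strand, with 96562 bases between them, while Scnn1a (ENSMUSG00000030340) lies at chr6:125320659-125344943. Sgk1 (ENSMUSG00000019970) spans chr10:21882184-21999903, Tsc22d3 (ENSMUSG00000031431) chrX:140539528-140600659 on the minus strand, Nr3c2 (ENSMUSG00000031618) chr8:76899442-77245012 and Hsd11b2 (ENSMUSG00000031891) chr8:105518755-105523988. On the opposite strand, Scnn1b overlaps Cog7, Nedd4l overlaps A330084C13Rik and AC102333.1, and Nr3c2 overlaps Gm10649 and the small nucleolar RNA Gm24838, besides Gm23260 on its own strand. Cog7 ranged from 20.6 to 40.7 TPM and A330084C13Rik from 0.74 to 2.54 TPM. Gm10649 reached at most 0.1 TPM, Gm23260 was listed at 0, and Gm24838 had a median of 0 and a highest value of 5.82 TPM, in the third dDAVP library of WT cells. Since no source states that counting used strand, reads from the shared stretches cannot be told apart.

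Start site windows of 250 bases before to 50 bases after a transcript start were held in the RefSeq table (GRCm38.p6) for 5 of the 9 genes, 1 each for Scnn1b, Scnn1g and Nr3c2, 3 for Tsc22d3 and 6 for Sgk1. They are shown because glucocorticoid receptor and cAMP-dependent factors bind known motifs, and a link of motifs to the changes below was not tested. The motifs searched on both strands were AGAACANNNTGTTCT (the glucocorticoid response element), its single arm AGAACA or TGTTCT, which also lies inside the whole element, TGACGTCA (the cAMP response element), its shorter form TGACG or CGTCA, which also lies inside the whole element, and TATAAA or TTTATA. Capitals mark matches in the windows below, each written 5′ to 3′ along its gene's strand.
Sgk1, chr10:21993640-21993939, plus strand: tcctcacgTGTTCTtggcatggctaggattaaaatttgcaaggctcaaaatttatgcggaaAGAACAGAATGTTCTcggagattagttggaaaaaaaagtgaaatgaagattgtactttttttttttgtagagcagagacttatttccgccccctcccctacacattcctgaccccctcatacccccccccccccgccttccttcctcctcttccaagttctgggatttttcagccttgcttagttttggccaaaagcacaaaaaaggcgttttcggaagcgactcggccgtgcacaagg
Sgk1, chr10:21994416-21994715, plus strand: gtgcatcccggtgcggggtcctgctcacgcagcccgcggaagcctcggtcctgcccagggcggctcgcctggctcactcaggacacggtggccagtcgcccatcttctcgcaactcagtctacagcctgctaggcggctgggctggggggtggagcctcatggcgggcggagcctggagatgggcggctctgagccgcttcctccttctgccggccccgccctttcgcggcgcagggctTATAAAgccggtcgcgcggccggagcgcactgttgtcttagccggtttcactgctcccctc
Tsc22d3, chrX:140600473-140600772, minus strand: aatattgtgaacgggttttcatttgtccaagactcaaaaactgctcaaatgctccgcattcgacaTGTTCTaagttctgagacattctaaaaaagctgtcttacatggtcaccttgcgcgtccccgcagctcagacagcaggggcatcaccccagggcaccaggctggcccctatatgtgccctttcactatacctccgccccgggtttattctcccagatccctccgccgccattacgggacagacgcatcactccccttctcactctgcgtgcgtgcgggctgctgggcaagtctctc
Scnn1g, chr7:121734229-121734528, plus strand: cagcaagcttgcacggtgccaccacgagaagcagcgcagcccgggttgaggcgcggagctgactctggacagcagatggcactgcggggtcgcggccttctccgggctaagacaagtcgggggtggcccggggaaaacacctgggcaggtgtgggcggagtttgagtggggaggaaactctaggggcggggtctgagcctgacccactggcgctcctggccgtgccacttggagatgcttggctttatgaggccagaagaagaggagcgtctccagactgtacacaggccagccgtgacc
Scnn1b, chr7:121864788-121865087, plus strand: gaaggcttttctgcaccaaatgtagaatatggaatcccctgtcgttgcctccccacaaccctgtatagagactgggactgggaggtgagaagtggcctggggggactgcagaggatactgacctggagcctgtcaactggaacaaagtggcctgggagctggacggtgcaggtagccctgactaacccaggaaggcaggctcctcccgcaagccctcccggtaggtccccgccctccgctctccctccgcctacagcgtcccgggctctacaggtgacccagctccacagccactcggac

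An Sgk1 window held the whole glucocorticoid response element, at chr10:21993701-21993715, 174 bases before the start at 21993890 and 950 bases before the next annotated start at 21994666. Of 32851 windows in the table, 3 held that element, 0.009%, the others belonging to Acnat2 and Gm35041. The window of the next Sgk1 start held TATAAA, as did 13.6% of all windows. TATAAA and a single element arm also lay together in another Sgk1 window, at chr10:21991973-21992272. A single element arm further lay in the Sgk1 window at chr10:21881934-21882233, in the Tsc22d3 window shown and in 19.0% of all windows, and a TGACG match lay in other windows of Sgk1 and Tsc22d3 and in 20.8% of all windows. No searched motif was matched in the windows of Scnn1g, Scnn1b and Nr3c2, and TGACGTCA was matched in none of the pathway windows and in 1.79% of all. A match describes letters and is not evidence of binding.

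Levels differed widely between the pathway genes. Over all 22 libraries the median was 970 TPM for Tsc22d3, 394 TPM for Sgk1, 171 TPM for Scnn1a and 85.5 TPM for Nedd4l. Nr3c1, Scnn1g and Hsd11b2 had medians of 30.7, 19.99 and 18.7 TPM, and Nr3c2 of 2.22 TPM. Scnn1b had a median of 0.285 TPM, so transcripts of the alpha and gamma subunits were plentiful and that of the beta subunit was close to the lower end of the measurement in every group. The glucocorticoid receptor exceeded the mineralocorticoid receptor in every library, with a ratio of Nr3c1 to Nr3c2 TPM between 5.65 and 184 and a median of 14.9.

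**Figure D1:**
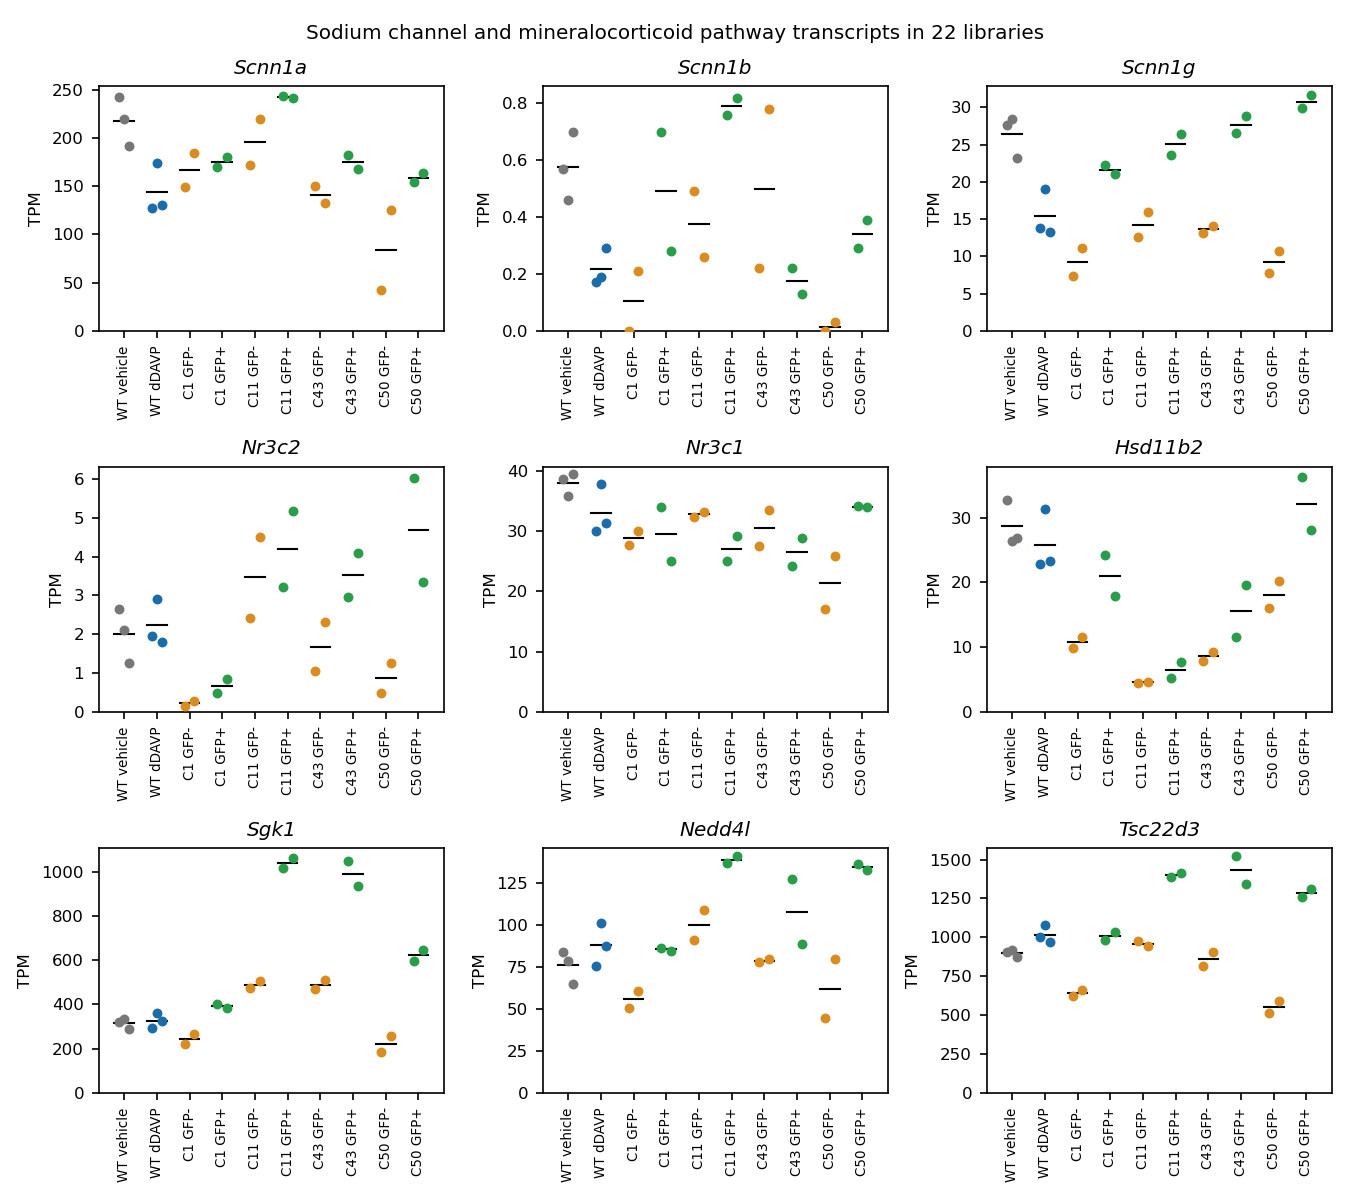
Level of each pathway gene in TPM on the y axis, each panel with its own linear scale from 0, in the 10 groups on the x axis; points are libraries and bars are group means. Scnn1g, Sgk1 and Tsc22d3 lie higher in both GFP-positive than in both GFP-negative libraries of each clone, and Scnn1b stays at or under 0.82 TPM.

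Among the channel subunits, Scnn1a and Scnn1g were both lower with dDAVP in WT cells. Scnn1a measured 242.6, 219.6 and 191.5 TPM in the vehicle libraries and 127.7, 173.8 and 130.9 TPM in the dDAVP libraries. Scnn1g measured 27.6, 28.4 and 23.1 TPM with vehicle and 13.8, 19.0 and 13.3 TPM with dDAVP. For both genes every dDAVP library lay below every vehicle library, and the second dDAVP library was the highest of its group. Group means went from 218 ± 25.6 to 144 ± 25.8 TPM for Scnn1a and from 26.4 ± 2.82 to 15.4 ± 3.15 TPM for Scnn1g (SD, n = 3 each), which are ratios of 0.662 and 0.583. On the log2(TPM + 1) scale Scnn1a fell by 0.60 (SE 0.140, limma adjusted p = 0.0435) and Scnn1g fell by 0.75 (SE 0.153, limma adjusted p = 0.0295).

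Of the 8 pathway genes with a mean of at least 1 TPM, these 2 were called with dDAVP at an adjusted p under 0.05, both lower. Among all 13494 genes tested, 8.88% were called, 6.51% lower and 2.37% higher, and the median change of all genes was -0.16. The groups did not overlap for Scnn1a, Scnn1g and Tsc22d3, 3 of 8, against 35.8% of all genes tested, a share close to that background. Both subunit calls were weakly held: Scnn1a lost its call in 11 of 15 alternative settings (adjusted p 0.0152 to 0.187) and Scnn1g in 9 of 15 (0.0125 to 0.106), while both stayed lower in all 15. Without vehicle library 1, 2 or 3 or dDAVP library 1 or 3 the limma adjusted p was 0.127, 0.112, 0.0700, 0.122 and 0.145 for Scnn1a, and 0.0971, 0.0939, 0.0597, 0.0907 and 0.106 for Scnn1g. A scaling by median ratios in place of TPM changed the split of all calls from 320 higher and 878 lower to 575 higher and 327 lower, and under it Scnn1a fell by 0.43 (adjusted p = 0.0749) and Scnn1g fell by 0.59 (adjusted p = 0.0462).

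The beta subunit was too low for the test. Scnn1b measured 0.57, 0.46 and 0.70 TPM with vehicle and 0.17, 0.19 and 0.29 TPM with dDAVP. The dDAVP values were all below the vehicle values. The groups also did not overlap for 35.8% of the genes tested, which do not include Scnn1b. In the clones Scnn1b ranged from 0 to 0.78 TPM in GFP-negative and from 0.13 to 0.82 TPM in GFP-positive libraries. These ranges overlapped, but within C1, C11 and C50 both GFP-positive values lay above both GFP-negative values. C1 gave 0 and 0.21 TPM in GFP-negative against 0.70 and 0.28 TPM in GFP-positive cells. C11 gave 0.49 and 0.26 against 0.76 and 0.82 TPM, and C50 gave 0 and 0.03 against 0.29 and 0.39 TPM. In C43 both GFP-positive values, 0.22 and 0.13 TPM, were at or below the GFP-negative values of 0.22 and 0.78 TPM.

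The remaining 6 tested genes were not called with dDAVP. Tsc22d3 measured 904, 916 and 871 TPM with vehicle and 1005, 1077 and 967 TPM with dDAVP, a difference of 0.18 on the log2 scale (SE 0.0647, limma adjusted p = 0.115). Its groups did not overlap, and with median-ratio scaling its difference was 0.35 (adjusted p = 0.0420). Sgk1 measured 321, 333 and 290 TPM with vehicle and 295, 359 and 327 TPM with dDAVP, and the groups overlapped (log2 difference 0.05, SE 0.0930, limma adjusted p = 0.716). Nedd4l measured 83.9, 78.6 and 65.1 against 75.3, 101.1 and 87.6 TPM (0.21, SE 0.135, limma adjusted p = 0.325).

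The receptors and the enzyme likewise overlapped between WT groups. Nr3c2 measured 2.66, 2.12 and 1.25 TPM with vehicle and 1.96, 2.92 and 1.80 TPM with dDAVP (0.11, SE 0.268, limma adjusted p = 0.794). Nr3c1 measured 38.7, 35.9 and 39.5 against 30.0, 37.8 and 31.3 TPM (-0.21, SE 0.107, limma adjusted p = 0.232). Hsd11b2 measured 32.8, 26.3 and 26.8 against 22.8, 31.3 and 23.4 TPM (-0.15, SE 0.147, limma adjusted p = 0.50). The second dDAVP library was the highest of its group for all 3 genes. The sign of these uncalled differences was not stable in all alternatives for Hsd11b2 (2 of 15), Sgk1 (3 of 15) and Nr3c2 (2 of 14). For Hsd11b2 it changed with both other scalings, which moved the median change of all genes from -0.16 to -0.0012 (median ratios) and -0.022 (quantiles).

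Between the GFP fractions of the clones, the gamma subunit was higher in GFP-positive cells of every clone. In C1, Scnn1g measured 7.42 and 11.1 TPM in GFP-negative and 22.3 and 20.99 TPM in GFP-positive cells. In C11 it measured 12.6 and 15.9 against 23.6 and 26.5 TPM, and in C43 13.2 and 14.1 against 26.5 and 28.8 TPM. C50 gave 7.76 and 10.7 against 29.9 and 31.6 TPM. All 8 GFP-positive values lay above all 8 GFP-negative values, 26.3 ± 3.77 against 11.6 ± 2.96 TPM (SD, n = 8 each). Scnn1g rose by 1.14 on the log2 scale with clone as a covariate (SE 0.124, limma adjusted p = 8.27e-06), and the group means differed by 1.76 to 3.33 times within the clones.

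The alpha subunit differed less. Scnn1a measured 149 and 185 TPM in GFP-negative and 170 and 181 TPM in GFP-positive cells of C1, and these overlapped. In C11 it measured 172 and 220 against 244 and 242 TPM, in C43 150 and 132 against 182 and 168 TPM. C50 gave 42.2 and 125 against 154 and 164 TPM. Both GFP-positive libraries lay above both GFP-negative libraries in C11, C43 and C50, and the value of 42.2 TPM came from the library that stood apart. Over the 4 clones the log2 difference was 0.46 (SE 0.188, limma adjusted p = 0.0744), which was not called. Without that library it was 0.26 with adjusted p = 0.00678, and without the second GFP-negative library of C50 0.54 with adjusted p = 0.0428. Without clone C50 it was 0.24 (adjusted p = 0.0320), and with median-ratio scaling and quantile normalization 0.54 and 0.49 (adjusted p = 0.00890 and 0.0203).

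The kinase Sgk1 was also higher in the GFP-positive fraction throughout. It measured 221 and 265 TPM in GFP-negative and 404 and 385 TPM in GFP-positive cells of C1, and 474 and 505 against 1016 and 1064 TPM in C11. C43 gave 468 and 512 against 1049 and 935 TPM, and C50 gave 185 and 259 against 598 and 646 TPM. The fractions separated within each clone but not across clones, since the GFP-negative cells of C11 and C43 lay above the GFP-positive cells of C1. Sgk1 rose by 1.08 (SE 0.101, limma adjusted p = 2.03e-06). Nedd4l, the ligase that Sgk1 phosphorylates, ranged from 44.3 to 109 TPM with a median of 78.6 TPM in GFP-negative cells, and from 84.6 to 141 TPM with a median of 130 TPM in GFP-positive cells. Nedd4l rose by 0.67 (SE 0.131, limma adjusted p = 0.00106), so transcripts of the kinase and of the ligase were higher in the same fraction.

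Tsc22d3 followed the same order. It ranged from 513 to 974 TPM with a median of 738 TPM in GFP-negative cells and from 982 to 1524 TPM with a median of 1325 TPM in GFP-positive cells. All 8 GFP-positive values lay above all 8 GFP-negative values, and Tsc22d3 rose by 0.79 (SE 0.0821, limma adjusted p = 5.48e-06).

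Of the receptors, Nr3c2 was called between the fractions and Nr3c1 was not; their difference was not tested. Nr3c2 measured 0.15 and 0.29 TPM in GFP-negative and 0.48 and 0.85 TPM in GFP-positive cells of C1, and 2.41 and 4.52 against 3.21 and 5.18 TPM in C11. C43 gave 1.04 and 2.32 against 2.96 and 4.10 TPM, and C50 gave 0.49 and 1.25 against 6.02 and 3.34 TPM. The fractions overlapped in C11 and were apart in the other clones. Nr3c2 rose by 0.76 (SE 0.218, limma adjusted p = 0.0131), a change on log2(TPM + 1) that understates ratios at this low level. That call was lost without C43 (0.76, adjusted p = 0.0580), without C50 (0.49, adjusted p = 0.0725) and with clone means as replicates (0.76, adjusted p = 0.0777). Nr3c1 ranged from 17.1 to 33.4 TPM in GFP-negative and from 24.2 to 34.3 TPM in GFP-positive cells, with medians of 28.8 and 29.0 TPM. Its log2 difference was 0.06 (SE 0.134, limma adjusted p = 0.785).

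Hsd11b2 was higher in the GFP-positive fraction at very different levels by clone. It measured 9.90 and 11.6 against 24.2 and 17.9 TPM in C1, and 4.46 and 4.66 against 5.28 and 7.62 TPM in C11. C43 gave 7.90 and 9.28 against 11.6 and 19.6 TPM, and C50 gave 16.01 and 20.2 against 36.2 and 28.1 TPM. Both GFP-positive libraries were above both GFP-negative libraries in each of the 4 clones. Hsd11b2 rose by 0.71 (SE 0.127, limma adjusted p = 0.000534).

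In all, 6 of the 8 tested pathway genes were called between the fractions, and all 6 were higher in GFP-positive cells. Among all 13113 genes tested 35.3% were called, 12.1% higher and 23.2% lower, with a median change of -0.06. Both GFP-positive libraries were above both GFP-negative libraries in all 4 clones for Scnn1g, Hsd11b2, Sgk1, Nedd4l and Tsc22d3, 5 of 8, against 6.72% of all genes tested. Without the C50 library that stood apart 7 were called, Scnn1a being added, where 46% of all genes were called, 13.4% higher and 32.6% lower. Median-ratio scaling split all calls into 2391 higher and 2292 lower in place of 1582 and 3044, and the 6 genes stayed higher under both other scalings. The summed level of 9 intercalated cell markers ranged from 22.1 to 74.9 TPM in GFP-negative and from 51.6 to 118.6 TPM in GFP-positive libraries. These ranges overlapped over the clones together, and the medians were 53.0 and 89.1 TPM. Most of it was Atp6v1b1, a proton pump subunit, at 19.4 to 71.6 and 44.6 to 110 TPM. The other 8 summed to between 2.71 and 6.25 TPM (median 3.54) and between 5.21 and 9.92 TPM (median 6.84). Among them, Slc4a9 had medians of 2.165 and 2.335 TPM and Aqp6 of 2.04 and 3.585 TPM. Foxi1, Slc4a1, Slc26a4 and Atp6v1g3 had a median of 0 over the libraries. The part of these markers in the differences was not tested. Principal cell markers, Aqp2 among them, summed to between 484 and 2904 TPM and between 3010 and 10611 TPM.

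**Figure D2:**
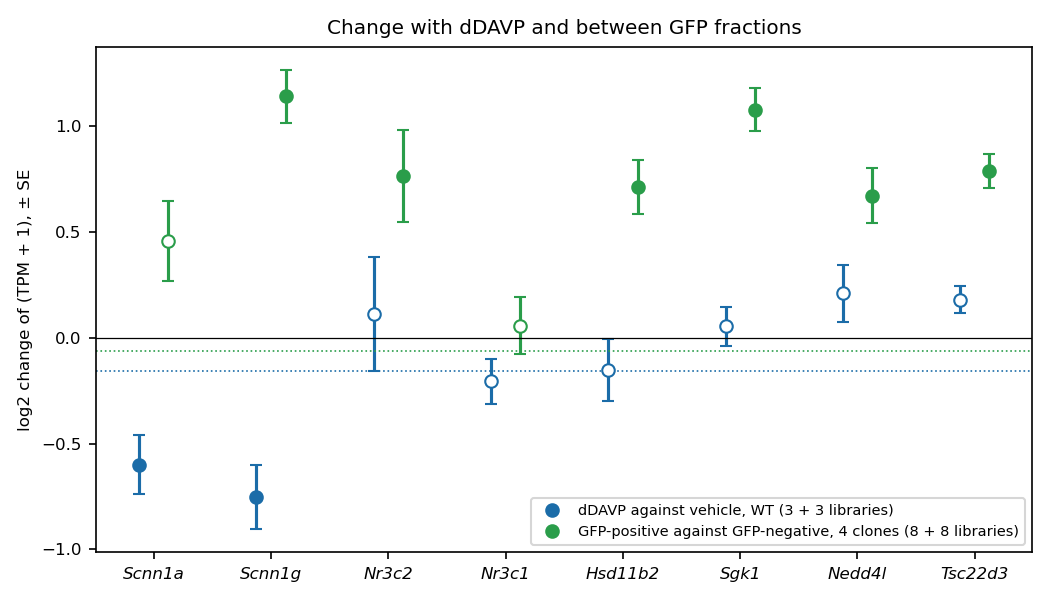
Change of each tested pathway gene on the y axis as a log2 difference of TPM + 1 with its SE, for dDAVP against vehicle in WT cells (blue) and GFP-positive against GFP-negative cells of the 4 clones (green); filled points passed an adjusted p of 0.05 and dotted lines mark the median of all genes. Scnn1a and Scnn1g lie below 0 with dDAVP and above 0 between the fractions.

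Within single clones, the calls rested on fewer libraries and varied. Scnn1g, Sgk1 and Tsc22d3 were called higher in each of the 4 clones. Scnn1g rose by 1.16 (C1), 0.78 (C11), 0.97 (C43) and 1.65 (C50), Sgk1 by 0.70, 1.09, 1.02 and 1.502, and Tsc22d3 by 0.65, 0.55, 0.73 and 1.22. In C50 all 8 tested pathway genes were called higher, Scnn1a by 1.12, Nr3c2 by 1.59, Nr3c1 by 0.67, Hsd11b2 by 0.79 and Nedd4l by 1.17. The background differed by clone as well. In C1, 3 of 8 were called where 7.22% of all genes were, 2.31% higher and 4.91% lower, and in C11 3 of 8 where 7.94% were, 2.23% higher and 5.7% lower. C43 had 3 of 8 where 16.3% were called, 4.29% higher and 12% lower, and C50 had 8 of 8 where 26.6% were called, 12.8% higher and 13.8% lower.

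These calls within clones, 17 in all, numbered 12 to 21 over 22 alternatives, and a fraction left with 1 library was assumed to vary like the others. Without the first GFP-negative library of C50, 4 of its 8 calls were lost, with Scnn1a at 0.35 (limma adjusted p = 0.148), Nr3c1 at 0.39 (0.177), Nr3c2 at 1.29 (0.0586) and Hsd11b2 at 0.64 (0.169). Nedd4l in C50 was 0.75 without that library and 1.58 without the second, and Scnn1a 1.89 without the second, and these stayed called. In C50 the call of Scnn1a was lost in 16 of 22 alternatives and that of Hsd11b2 in 14. Scnn1g in C11 lost its call in 11 of 22, on leaving out any library of C11, a GFP-positive library of C1 or C50, or a GFP-negative library of C43, besides testing all genes above 0 (adjusted p up to 0.239). Leaving out the first GFP-negative library or either GFP-positive library of C1 ended the call of Sgk1 there (adjusted p = 0.143, 0.112 and 0.0714), and the first also that of Scnn1g there (0.0504). Tsc22d3 in C11 lost its call without the second GFP-negative or GFP-positive library of C11 (0.0527 and 0.0517) and with quantile normalization (0.111). Scnn1g in C43 lost its call without the first GFP-negative or the second GFP-positive library of C43 (0.0619 and 0.0531). Calls were also gained. Hsd11b2 was called higher in C1 in 6 of 22 alternatives and in C43 in 5, and Nedd4l in C1 in 4, in C43 in 2 and in C11 in 1, under median-ratio scaling for each of these 5.

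Whether the fraction difference itself varied among the clones was tested as an interaction. By limma's F-test 0 of the 8 pathway genes were called, where 0.869% of all genes were. The lowest limma adjusted p was 0.0962 for Tsc22d3, followed by 0.263 for Sgk1 and 0.311 for Nr3c1. Without the second GFP-negative library of C50, 38.6% of all genes were called, and 6 of the 8 among them: Scnn1a, Scnn1g, Nr3c1, Sgk1, Nedd4l and Tsc22d3, with limma adjusted p from 0.000982 to 0.0378. The only GFP-negative library of C50 left there was the first, the one that stood apart. A spread between GFP-negative libraries of C50 could then not be measured, so these calls do not decide whether the clones differed. In none of the other 21 alternatives was any of the 8 called.

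**Figure D3:**
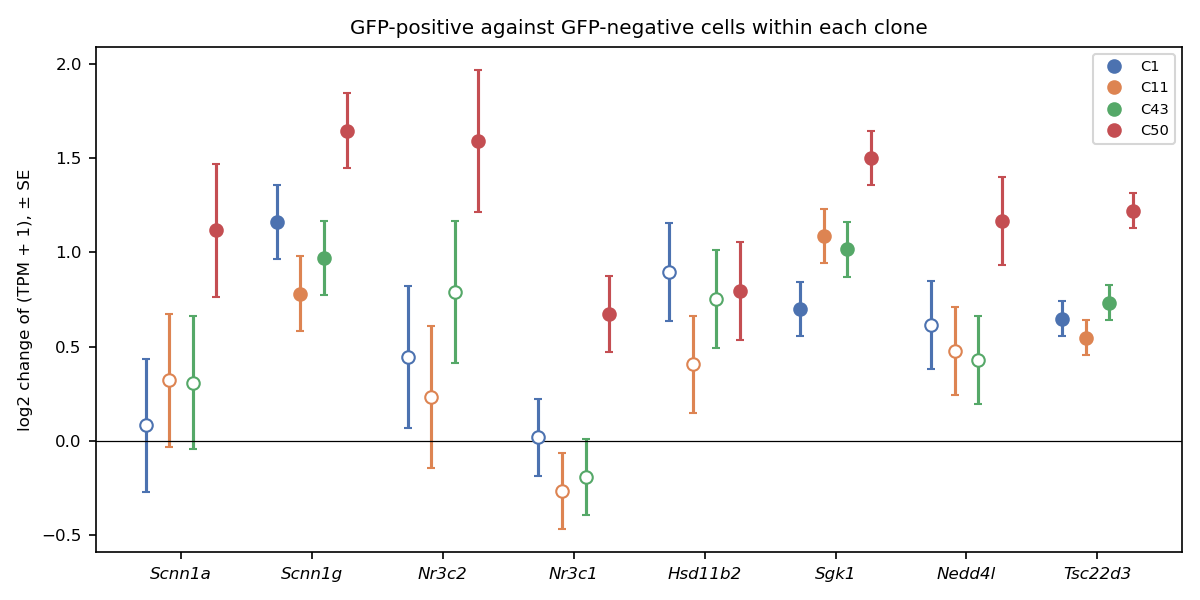
Difference between GFP-positive and GFP-negative cells of each tested pathway gene on the y axis, as a log2 difference of TPM + 1 with its SE, for the 4 clones by colour; filled points passed an adjusted p of 0.05. C50 has the highest value for 7 of the genes, and C1 for Hsd11b2.

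The clones differed in level at equal fraction for 5 of the 8 genes, where 28% of all genes were called. They were Hsd11b2 (limma F-test, adjusted p = 1.39e-05), Sgk1 (2.23e-05), Nr3c2 (0.00377), Tsc22d3 (0.00464) and Nedd4l (0.0355). Hsd11b2 and Sgk1 were ordered differently, C50 having the highest Hsd11b2 in each fraction and C11 the lowest, while C11 and C43 had the highest Sgk1. Nr3c2 was lowest in C1 in each fraction. Scnn1a, Scnn1g and Nr3c1 were not called (adjusted p = 0.0519, 0.205 and 0.912). Nedd4l lost its call in 9 of 22 alternatives, on leaving out any library of C1 or C11 (0.0533 to 0.0960) and on testing all genes above 0 (0.107), and Scnn1a gained one without C50 GFP-negative library 1 (0.00103) or 2 (0.0332) or GFP-positive library 2 (0.0443), with a filter of 5 TPM (0.0453), with median-ratio scaling (0.0207) and with quantile normalization (0.0285). Scnn1g gained one without the first GFP-negative library of C50 (0.0466) and with quantile normalization (0.0237).

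Over the 10 groups, each gene had its own order. Scnn1a was highest in GFP-positive C11 cells (243 ± 1.63 TPM), next in WT vehicle, and lowest in GFP-negative C50 cells (83.6 ± 58.5 TPM), a ratio of 2.91, and 8 of the 9 pairs of neighbours in that order overlapped. Scnn1g ran from 30.8 ± 1.24 TPM in GFP-positive to 9.24 ± 2.10 TPM in GFP-negative C50 cells, with WT vehicle among the GFP-positive groups and WT dDAVP just above the GFP-negative groups. For Scnn1g 5 of 9 neighbouring pairs overlapped, and GFP-positive C1 was apart from WT dDAVP below it. Nr3c2 had the widest span of the tested genes, 4.68 ± 1.90 TPM in GFP-positive C50 against 0.22 ± 0.0990 TPM in GFP-negative C1, a ratio of 21.3, with 8 of 9 neighbours overlapping. Nr3c1 had the narrowest, 38.0 ± 1.90 TPM in WT vehicle against 21.4 ± 6.19 TPM in GFP-negative C50, a ratio of 1.77 with 8 of 9 overlapping.

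Hsd11b2 ran from 32.2 ± 5.76 TPM in GFP-positive C50 to 4.56 ± 0.141 TPM in GFP-negative C11, a ratio of 7.05, with 6 of 9 neighbours overlapping and the lowest 4 groups apart from each other. Sgk1 ran from 1040 ± 33.7 TPM in GFP-positive C11 to 222 ± 52.6 TPM in GFP-negative C50, and both WT groups lay below all GFP-positive groups and above only GFP-negative C1 and C50 (4 of 9 overlapping). Nedd4l ran from 139 ± 2.97 TPM in GFP-positive C11 to 55.6 ± 6.78 TPM in GFP-negative C1 (6 of 9 overlapping). Tsc22d3 ran from 1433 ± 129 TPM in GFP-positive C43 to 552 ± 55.2 TPM in GFP-negative C50, with 3 of 9 overlapping, and its 3 highest groups were GFP-positive (SD, n = 2 or 3 throughout). Several ends of these orders rested on single libraries. Without the first GFP-negative library of C50, GFP-negative C1 was lowest for Scnn1g (9.28 TPM against 10.7 TPM in GFP-negative C50) and for Sgk1 (243 against 259 TPM), as it also was for both without its own second library (7.42 and 221 TPM). Scnn1a in GFP-negative C50 was 125 TPM without the first library and 42.2 TPM without the second, which set its ratio of highest to lowest group at 1.94 and 5.75. For Nr3c1 that ratio was 1.47 without the first. Nedd4l was lowest in GFP-negative C50 without the second (44.3 TPM). The highest group changed with a GFP-positive library left out for Nr3c2 (the first of C11 or C50), Hsd11b2 (the first of C50), Sgk1 (the second of C43) and Tsc22d3 (the first of C43).

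The comparison of dDAVP in WT cells and of the GFP fractions shares no library, so the changes could be tested against each other in a fit over all groups. The GFP change exceeded the dDAVP change for 5 of the 8 genes, where 13.9% of all 13244 genes tested were called, 5.84% with the higher and 8.03% with the lower GFP change. The difference was 1.89 for Scnn1g (SE 0.191, limma adjusted p = 8.94e-06) and 1.06 for Scnn1a (SE 0.306, limma adjusted p = 0.0320). It was 1.02 for Sgk1 (limma adjusted p = 0.000111), 0.61 for Tsc22d3 (0.000155) and 0.86 for Hsd11b2 (0.0220). Nr3c2, Nr3c1 and Nedd4l were not called (adjusted p = 0.221, 0.334 and 0.163). Scnn1g was called lower with dDAVP and higher in GFP-positive cells, as were 35 of 12765 genes tested in both, 0.274%.

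The opposite directions of Scnn1g held in every alternative run, since it stayed lower with dDAVP, higher between the fractions and called in all 28 alternatives for the difference. Scnn1a lost the call for the difference in 8 of 28 and Hsd11b2 in 4 of 28. For Scnn1a these included leaving out vehicle library 1 or 2, dDAVP library 1 or 3 (limma adjusted p = 0.0964, 0.0696, 0.0998 and 0.0925), the first GFP-negative library of C1 or C11, or the second of C43 (0.0533, 0.0544 and 0.0511). For Hsd11b2 they were vehicle library 1 and dDAVP libraries 1 and 3 (0.0809, 0.0799 and 0.0736), besides testing all genes above 0. Nedd4l gained a call without the second GFP-negative library of C50 (0.57, adjusted p = 0.0154).

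The unequal change of the subunits was followed as the ratio of Scnn1a to Scnn1g TPM, a quantity chosen after these values had been seen. A single scaling factor per library does not affect it, while quantile normalization can. In WT cells the ratio was 8.80, 7.73 and 8.27 with vehicle and 9.22, 9.15 and 9.86 with dDAVP. Every dDAVP library was above every vehicle library, with means of 8.27 ± 0.535 and 9.41 ± 0.388 (SD, n = 3 each), a log2 difference of 0.19 (exact two-sided permutation p = 0.1, the smallest that 20 arrangements allow). With quantile normalization that difference was -0.06 (exact two-sided permutation p = 0.80), so its direction with dDAVP depended on the normalization. In the clones the mean ratio went from 18.3 in GFP-negative to 8.13 in GFP-positive cells of C1 and from 13.7 to 9.72 in C11, while C43 gave 10.4 and 6.34 and C50 gave 8.54 and 5.17. Within C1, C11 and C43 the fractions did not overlap. The first GFP-negative library of C50, at 5.44, lay far below the second at 11.6 and just above the GFP-positive values of 5.15 and 5.18. The mean log2 difference over the clones was -0.75 (exact two-sided permutation within clones, p = 0.00154, the smallest that 1296 arrangements allow) and -0.73 with quantile normalization, and by clone it was -1.17 (C1), -0.50 (C11), -0.71 (C43) and -0.62 (C50). The value of C50 rested on its GFP-negative libraries, being -1.17 without the first and -0.07 without the second. The mean over the clones was then -0.89 and -0.61.

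**Figure D4:**
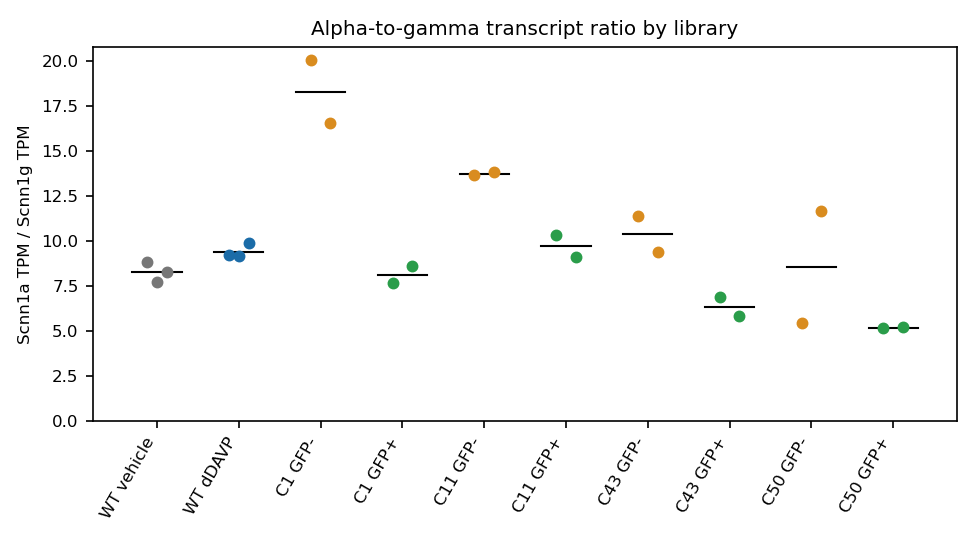
Ratio of Scnn1a to Scnn1g TPM on a linear y axis from 0 in the 10 groups on the x axis; points are libraries and bars are group means. GFP-positive libraries lie between 5.15 and 10.3 and GFP-negative libraries between 5.44 and 20.1.

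The other genes of the pathway were read from 5 lists. Among 17 tested genes, of 20 listed as known to respond to glucocorticoids or mineralocorticoids, 4 rose and 2 fell with dDAVP in WT cells, with a median change of -0.21 against -0.16 over all genes, of which 2.37% were called higher and 6.51% lower. The 4 that rose were Cebpd, a transcription factor (3.41 ± 0.514 to 29.4 ± 1.39 TPM, log2 change 2.79, limma adjusted p = 8.03e-05), the metal-binding metallothioneins Mt2 (2.46, adjusted p = 6.38e-05) and Mt1 (1.89, adjusted p = 0.000192), which are close copies and may share reads, and the deubiquitinase Usp2 (0.81, adjusted p = 0.00653). Dusp1, a phosphatase of MAP kinases, fell by 0.66 (1342 ± 8.69 to 849 ± 29.0 TPM, limma adjusted p = 0.00130), and the transcription factor Klf9 fell by 0.38 (adjusted p = 0.0312). Fkbp5, a receptor co-chaperone that glucocorticoids induce, measured 185 ± 8.71 and 183 ± 17.4 TPM (-0.02, adjusted p = 0.874).

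Between the fractions 7 of those 17 rose and 3 fell, where 12.1% of all genes were called higher and 23.2% lower, with a median of 0.18 against -0.06 over all genes. Ddit4, an inhibitor of mTOR signalling, fell by 1.76 (23.3 ± 11.1 to 6.05 ± 2.60 TPM, limma adjusted p = 0.000308). Cebpd rose by 1.42 (adjusted p = 5.12e-08), Mt2 by 1.02 (2.34e-05) and Usp2 by 1.02 (6.23e-07), and the others that rose were Zbtb16, Mt1, Fkbp5 and Per1, a clock gene. Fkbp5 measured 178 ± 66.1 and 284 ± 38.9 TPM (0.81, limma adjusted p = 0.0131). Edn1, which encodes endothelin, fell by 0.29 (limma adjusted p = 0.00194). Without the C50 library that stood apart the counts were 7 and 5, where 13.4% of all genes were called higher and 32.6% lower.

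The lists of partners are read against 8.88% of all genes called with dDAVP and 35.3% between the fractions. These are shares at an adjusted p under 0.05. No share of all genes was computed at an unadjusted p under 0.05, so counts at that level are given without a background. None of 12 receptor chaperones and coregulators was called by limma with dDAVP (5 at an unadjusted p under 0.05, median -0.21), and between the fractions the coactivator Ncoa2 rose by 0.71 (limma adjusted p = 0.00615) while 4 fell, the largest being the co-chaperone Stip1, which fell by 0.36 (adjusted p = 0.00261). These 5 of 12 are a share near the background. None of 16 channel ubiquitination genes, kinases and 14-3-3 proteins was called by limma with dDAVP (6 at an unadjusted p under 0.05, median -0.17), and 2 fell between the fractions, the deubiquitinase Uchl3 by 0.37 and the 14-3-3 protein Ywhae by 0.24 (median -0.08). Leaving out the first GFP-negative library of C50 gave 2 higher and 6 lower for the chaperones and 1 higher and 6 lower for the latter list, where 46% of all genes were called, most of them lower. Of 4 steroid metabolism genes 2 were tested. H6pd, which supplies NADPH to the 11-beta-hydroxysteroid dehydrogenase Hsd11b1, rose by 1.10 with dDAVP (limma adjusted p = 0.00606) and by 0.95 between the fractions (adjusted p = 0.00123). Hsd11b1 itself was too low for the test. Its means were 0.297 and 0.227 TPM with vehicle and dDAVP in WT cells, and 0.22 and 0.1875 TPM in GFP-negative and GFP-positive cells. Srd5a1, a steroid 5-alpha-reductase, differed by 0.30 with dDAVP (adjusted p = 0.121) and rose by 0.41 between the fractions (adjusted p = 0.00148). Of 5 acid-sensing channels of the same superfamily as the sodium channel, Asic1 alone was tested, and it was not called in either comparison.

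**Figure D5:**
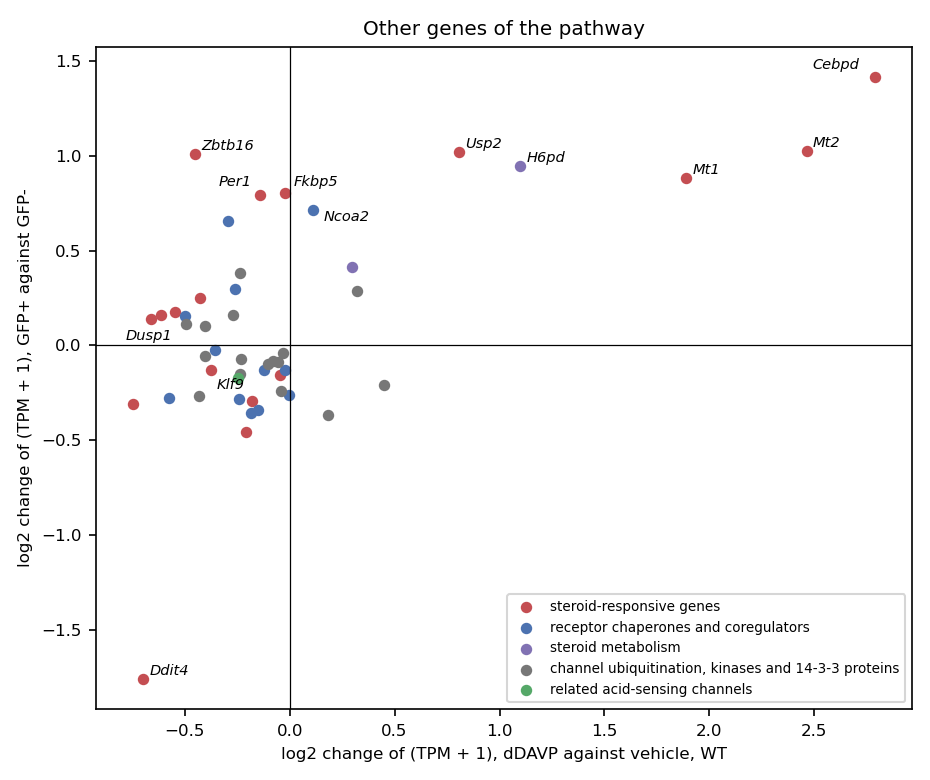
Each point is a tested gene of the 5 lists, with its log2 difference of TPM + 1 for dDAVP against vehicle in WT cells on the x axis and for GFP-positive against GFP-negative cells of the 4 clones on the y axis, coloured by list. Cebpd, Mt1, Mt2, Usp2 and H6pd lie above 0 on both axes, and Ddit4 lies lowest on the y axis.

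Likeness of pattern was described by Pearson's r of log2(TPM + 1) over the 22 libraries, which share clones and fractions and are not independent. These include the C50 library that stood apart, which holds the lowest Scnn1a value, 42.2 TPM. Sgk1, Nedd4l and Tsc22d3 were alike, with r of 0.84 for Sgk1 and Nedd4l, 0.88 for Sgk1 and Tsc22d3 and 0.88 for Nedd4l and Tsc22d3. Scnn1g had r of 0.82 with Tsc22d3 and 0.62 with Scnn1a, and Nr3c2 had r of 0.83 with Nedd4l. Hsd11b2 had r between -0.32 and 0.36 with the others. Among other genes with a mean of at least 5 TPM, those most like Scnn1a were Sestd1 (r = 0.97), Wfs1 and App, those most like Scnn1g were Dock8 (0.94), Ccser1 and St6galnac2, and those most like Scnn1b were Lyst (0.77), Fgd4 and Snx29. Sgk1 was most like Tmem50b (0.98), Dnase1l2 and Cd82, Nedd4l most like Entpd6 (0.97), Lrp6 and Farp2, and Tsc22d3 most like Pla2g4a (0.95), Muc1 and Tnfrsf21. For Nr3c2 these were Sort1 (0.92), Tjp3 and Cracdl, for Nr3c1 Mafg (0.90), Atrx and Gse1, and for Hsd11b2 Dlec1 (0.86) and Ptger1.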

How the data were processed

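RNA of 22 libraries was made into cDNA with the SMART-Seq HT kit and into libraries with Nextera XT, per the labels' protocols. The authors deposited 1 table of TPM values per gene and library. STAR and RSEM are named in the submitters' processing notes without role or version, and the genome build and annotation are not given in the sources used here. TPM keeps no read depth, so depth is unknown and no counting intervals are given. A column with the highest value of each line (a signal column by the authors) and the authors' deposited ratios of group means were not used. The 980 lines that share a symbol were summed by symbol, which gave 54514 entries.

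Tests used limma 3.58.1 in R 4.3.3 (two-sided, moderated with a mean-variance trend) on log2(TPM + 1), for genes with a mean of at least 1 TPM over the libraries fitted, with Benjamini-Hochberg adjustment over all genes tested and a threshold of 0.05. Changes on this scale understate those of low genes. dDAVP was tested in the 6 WT libraries, the fractions in the 16 clone libraries with clone as a covariate, single clones and interactions with 1 mean per clone and fraction, and the difference of both changes over all 22 libraries. The pathway genes and lists were chosen with earlier results of these data known. The text names all 9 pathway genes, up to 4 called genes per list and comparison by size of change, and 3 genes most like each pathway gene, apart from genes not reported here; Fkbp5 and the smaller changes named beside it were chosen after their values were seen. Alternatives were the pseudocount (0.1), the filter (5 TPM, or any value above 0), 2 other scalings, no trend, the replicate number as a block, clone means, and each library or clone left out. On simulated data, the fits recovered 65% (dDAVP, 13209 genes) and 90.8% (fractions, 12910 genes) of genes changed by a log2 fold of 1, and 3.25% and 7.14% of all calls were false, the latter above the threshold of 5%.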

Additional observations from a re-analysis of the deposited data

How the results depend on the processing

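The count of pathway genes called with dDAVP, 2 in the reported fit, was 0 when genes at any level were tested, with quantile normalization, without a trend and with the replicate block, and 1 in a fit of all 22 libraries; leaving out a library gave 0 to 2, with 2 only without the second dDAVP library. All genes called there numbered 1198, and 442 with every gene above 0 tested, 691 without a trend, 122 with the replicate block, 789 in the fit of 22 libraries and 2694 with the number of genes detected as a covariate, an alternative added after seeing the data; leaving out a library gave 314 to 2038. The replicate block rests on numbers that do not pair the libraries: deviations of same-numbered WT libraries correlated at -0.31, -0.13 and -0.11, none best with its own number, and those of C1, C11, C43 and C50 at 0.06, 0.14, 0.16 and 0.09. Under the block Scnn1a and Scnn1g had limma adjusted p of 0.125 and 0.0819. Between the fractions, 5 to 7 pathway genes were called over 29 alternatives, and all genes called fell from 4626 to 2406 with clone means (4170 to 6043 on leaving out a library). The count for the difference of both changes, 5, was 3 with every gene above 0 tested. On leaving out a library it was 3 to 6. The count for the interaction, 0, was 0 to 6, with 6 only without the second GFP-negative library of C50. Of 1623 values of single genes under alternatives, 1469 kept direction and side of the threshold, 100 lost it, 39 gained it and 15 reversed, none of these 15 from a called value. With dDAVP these were Hsd11b2 at 0.014 (median ratios) and 0.063 (quantiles), Sgk1 at -0.020 (quantiles), -0.0040 (without vehicle library 3) and -0.017 (without dDAVP library 2; up to 0.125 on leaving out others), and Nr3c2 at -0.083 and -0.036 without the same libraries (up to 0.268). In C1 they were Scnn1a at -0.074 (up to 0.235) and Nr3c1 at -0.040 (without GFP-negative library 1) and Nr3c1 at -0.197 (without GFP-positive library 1; up to 0.232), in C11 Nr3c2 at -0.114 (without GFP-negative library 1) and -0.043 (without GFP-positive library 2; up to 0.581), and in C43 Nr3c1 at 0.017 (quantiles). Over the clones Nr3c1 was at -0.051 without the first GFP-negative library of C50 (up to 0.107) and -0.148 without clone C50. The cause of these moves was not tested, beyond fewer libraries or more genes tested. The ratio of Scnn1a to Scnn1g, with its alternatives, was added after seeing the data. Between the fractions it was -0.89 to -0.61 on leaving out a library or a clone and -0.73 with quantile normalization; with dDAVP it was 0.14 to 0.23 on leaving out a library and -0.065 with quantile normalization.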
